A study of Mus musculus with 12 samples.

Results

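The tryptophan transfer RNAs (tRNA-Trp, anticodon CCA) of mouse hematopoietic stem and progenitor cells, from which blood cells are made in the marrow, are described base by base. They were taken as every row of the deposited tables whose tRNA entry is named tRNA-Trp, which gave 575 of 28302 rows and 8 of 404 entries. Entries with identical values in all libraries were counted once, which left 6 distinct tRNA-Trp entries with 425 rows, among 213 distinct tRNAs in all. The groups were CMC-treated and BEU-treated RNA of old wildtype cells and CMC-treated and BEU-treated RNA of young wildtype cells, with 3 libraries each and 12 in all. All RNA was first demethylated with wild-type AlkB and an AlkB mutant, which remove several base methylations that block reverse transcriptase. CMC, a carbodiimide that stays bound to pseudouridine and halts reverse transcriptase, was added to the CMC libraries, and BEU is the same buffer without it. The labels give neither the ages in months nor whether replicates came from separate animals, so each p-value rests on the spread among libraries that may be technical repeats.

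Pseudouridine is an isomer of uridine made in tRNA by several synthases with different target positions. PUS1 is known to act at positions 27 and 28 of the anticodon stem, PUS3 at positions 38 and 39, TRUB1 at position 55 of the T loop, and PUS10, the enzyme named in the series title, at positions 54 and 55. Most tRNAs carry ribothymidine at position 54, whereas mammalian tRNA-Trp is among the few known to carry pseudouridine there.

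The 6 distinct sequences are shown because their differences decide which reads each entry can share with the others. They are given 5′ to 3′ as the row names spell them, with the T of positions 27, 39, 54 and 55 in capitals.
tRNA-Trp-CCA-1-1: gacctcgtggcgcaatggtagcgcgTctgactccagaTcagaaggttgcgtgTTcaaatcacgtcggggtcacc
tRNA-Trp-CCA-2-1: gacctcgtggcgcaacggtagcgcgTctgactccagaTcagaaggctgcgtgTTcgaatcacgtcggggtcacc
tRNA-Trp-CCA-3-1: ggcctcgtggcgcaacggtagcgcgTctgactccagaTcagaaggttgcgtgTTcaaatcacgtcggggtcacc
tRNA-Trp-CCA-4-1: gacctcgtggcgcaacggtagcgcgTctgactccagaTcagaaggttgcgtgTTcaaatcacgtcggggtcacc
tRNA-Trp-CCA-5-1: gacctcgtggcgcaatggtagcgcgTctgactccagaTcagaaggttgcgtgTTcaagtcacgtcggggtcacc
tRNA-Trp-CCA-6-1: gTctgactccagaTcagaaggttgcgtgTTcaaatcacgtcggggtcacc

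The sequence of tRNA-Trp-CCA-3-1 stands for 2 entries, as does that of tRNA-Trp-CCA-4-1. Bases were counted from 1 at the 5′ end of the tRNA, and the usual tRNA position equals the base number up to 16 and is 1 higher after it. Relative to tRNA-Trp-CCA-4-1 and by base number, tRNA-Trp-CCA-3-1 differed by A2G, tRNA-Trp-CCA-1-1 by C16T, tRNA-Trp-CCA-5-1 by C16T and A58G, and tRNA-Trp-CCA-2-1 by T46C and A56G. tRNA-Trp-CCA-6-1 begins at base 25 and matched tRNA-Trp-CCA-4-1 from there on. All 6 hold T at positions 27, 39, 54 and 55 and none holds T at position 28. RefSeq lists 8 nuclear tRNA-Trp genes in the mouse build GRCm38.p6, 4 on chromosome 11, 2 on chromosome 10 and 2 on chromosome 13. Its names were not paired with the entries of the tables, so no gene coordinates are given.

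The stop rate is the percent of reads over a base at which reverse transcription ended there, and the rise is the CMC stop rate minus the BEU stop rate of the same age and replicate number, in percentage points. A site was called when CMC against BEU had an adjusted p under 0.05 in edgeR's quasi-likelihood test and the rise averaged at least 10 points and was above 0 in all 3 replicates. This test, like that of the age difference, compares log odds of stop against read-through counts (coverage minus stops). Its p-values are therefore not tests of the differences in percentage points printed beside them. The highest coverage of a tRNA-Trp entry lay between 664 and 6095 reads per CMC library and between 1827 and 7983 per BEU library. Coverage in the tables never exceeds 8015, and 4 tRNA-Trp entries reached 7500 in 1 old and in 1 young BEU library, but none did at or 5′ of positions 27, 39, 54 or 55. Stop counts of all tRNA-Trp entries were at their lowest value of 1 at bases 61 to 74, so stops there could not be measured.

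Of 84 tested T sites in tRNA-Trp, 23 were called in old cells and 20 in young cells, against 20.2% and 18.8% of the 2189 T sites of all tRNAs. All 20 young calls were also old calls. Of the 24 T sites at positions 27, 39, 54 and 55, 22 were called in old cells and 20 in young cells, and the other 60 T sites held 1 call, in old cells. Of those 60, 12 lie at bases 61 to 74, where stops could not be measured. They stay in the 84 and in the median rise below, and the A, C and G sites also include such bases. Over the A, C and G sites, 1 of 305 was called in old cells and 0 of 305 in young cells, against 0.635% and 0.356% of 7870 such sites. The median rise over the tested T sites was 5.86 points in old and 2.59 points in young tRNA-Trp, beside 2.25 and 1.75 points over the T sites of all tRNAs. These medians pool entries that have the same stop counts at many bases. The lowest stop count is 1, which is a larger percent where coverage is lower, and its part in the medians was not tested.

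**Figure D1:**
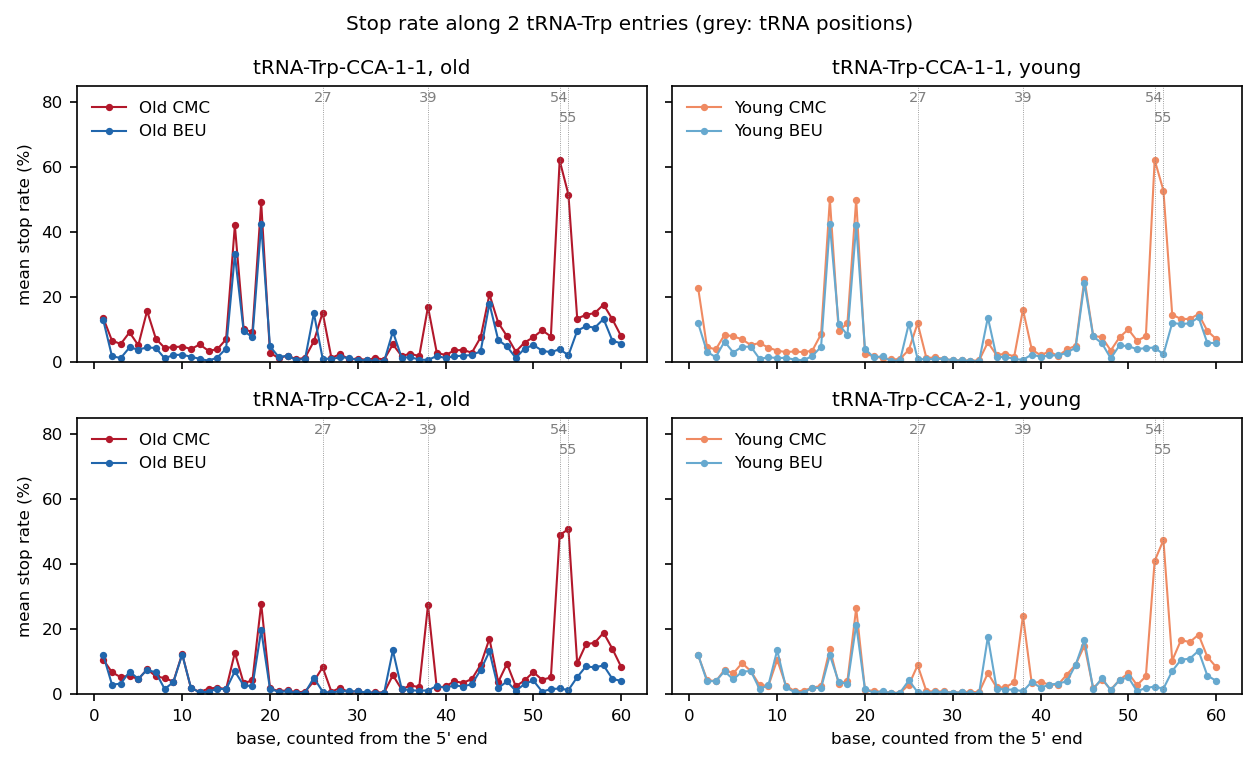
Mean stop rate (percent, y axis) at bases 1 to 60 counted from the 5′ end (x axis) of tRNA-Trp-CCA-1-1 and tRNA-Trp-CCA-2-1, for old (left) and young (right) libraries with CMC and with BEU, mean of 3 libraries. The CMC line stands furthest above the BEU line at positions 39, 54 and 55 in all 4 panels, and the D-loop base 19 and base 45 are raised in both lines. Bases 1 to 15 of tRNA-Trp-CCA-1-1 had CMC coverage under 20 in at least 1 library of each age and were drawn but not tested.

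The calls rest on fewer independent read sets than entries. The stop counts of tRNA-Trp-CCA-1-1, tRNA-Trp-CCA-3-1 and tRNA-Trp-CCA-4-1 were identical in all 12 libraries at bases 16 to 57, and tRNA-Trp-CCA-6-1 had the same counts as tRNA-Trp-CCA-1-1 at all 36 shared bases from 25 to 60. Reads that stop inside this stretch hold no base that differs between these entries. No base had the same coverage in any pair of entries in all 12 libraries, since coverage also holds the longer reads. At each of positions 27, 39, 54 and 55 there were thus 3 distinct sets of stop counts among the 6 entries, carried by the shared set, by tRNA-Trp-CCA-2-1 and by tRNA-Trp-CCA-5-1. Counted by distinct stop sets, the calls at T came to 12 in old cells and 10 in young cells. These are upper limits on independent calls, since sets that differ in a single library count as distinct. At position 27 the sets of tRNA-Trp-CCA-1-1 and tRNA-Trp-CCA-5-1 differed only in old CMC replicate 2, with 19 and 18 stop reads. tRNA-Trp-CCA-1-1 stands for the shared set below.

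Position 54 was strongly CMC-dependent in every tRNA-Trp entry at both ages. In tRNA-Trp-CCA-1-1 its stop rate was 63.9%, 57.9% and 64.5% in the old CMC libraries, against 3.97%, 3.18% and 4.75% in the old BEU libraries. The same site had 63.4%, 63.9% and 59.5% in the young CMC libraries, against 3.47%, 5.81% and 4.11% in the young BEU libraries. Every CMC library lay more than 10 times above the BEU mean of its age, and the old and young CMC values overlapped. The rise was 58.1 ± 2.98 points in old cells (adjusted p = 6.28e-08) and 57.8 ± 2.29 points in young cells (adjusted p = 8.39e-08; SD, n = 3 pairs each, edgeR). Behind the CMC values stood 140 to 502 reads in old and 148 to 1249 reads in young libraries.

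The other stop sets were lower or similar at position 54. tRNA-Trp-CCA-2-1, the entry with G at base 56, had 49.8%, 50.6% and 46.4% in old CMC libraries, against 1.31%, 1.56% and 2.31% in old BEU libraries. In young cells it had 37.0%, 38.9% and 47.0% with CMC, against 2.12%, 2.77% and 1.93% with BEU. Of the young CMC values 2 lie under all 3 old ones and the other lies among them. tRNA-Trp-CCA-5-1 rose by 57.0 ± 4.10 points in old and 56.2 ± 1.87 points in young cells (SD, n = 3 pairs each). Numbered from the 3′ end, position 54 was T and tested in 143 other tRNAs, of which 38 (26.6%) were called in old cells and 32 (22.4%) in young cells, with median rises of 5.79 and 4.02 points. Over the 6 tRNA-Trp entries the median rise was 57.8 points in old and 57.1 points in young cells, a description over entries that share reads.

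Position 55 was called in all 6 entries at both ages as well. In tRNA-Trp-CCA-1-1 its stop rate was 51.2%, 51.5% and 51.9% in old CMC libraries, against 2.24%, 1.37% and 2.63% in old BEU libraries, and 50.7%, 53.5% and 54.2% in young CMC libraries, against 2.29%, 2.46% and 2.33% in young BEU libraries. tRNA-Trp-CCA-2-1 rose by 49.6 ± 1.62 points in old and 45.7 ± 3.21 points in young cells, and tRNA-Trp-CCA-5-1 by 41.0 ± 2.58 and 39.2 ± 4.10 points (SD, n = 3 pairs each). A stop at position 55 hides position 54 of the same molecule, because the transcriptase meets position 55 first, so a stop rate at position 54 counts only reads that passed position 55. Of 159 other tRNAs with a tested T at position 55, 130 (81.8%) were called in old and 122 (76.7%) in young cells, with median rises of 36.5 and 33.4 points.

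**Figure D2:**
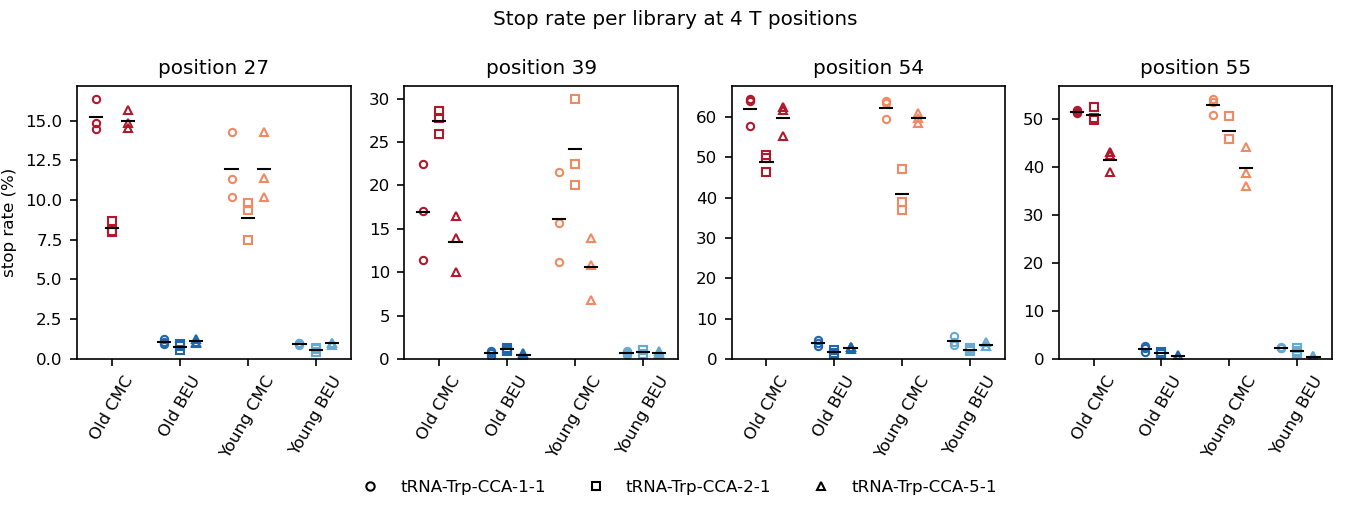
Stop rate (percent, y axis, a separate scale from 0 in each panel) per library at positions 27, 39, 54 and 55, by age and treatment (x axis), for the 3 entries with distinct stop counts. At position 27 the stop counts of tRNA-Trp-CCA-1-1 and tRNA-Trp-CCA-5-1 differ only in old CMC replicate 2 (19 and 18 reads). Points are libraries and bars are means of 3; every CMC library lies above every BEU library, and tRNA-Trp-CCA-2-1 is below the others at position 54 and above them at position 39.

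At position 39, a PUS3 site at the foot of the anticodon stem, all 6 entries were called in old cells and 5 in young cells. tRNA-Trp-CCA-2-1 had stop rates of 25.9%, 28.6% and 27.8% in old CMC libraries, against 0.887%, 1.16% and 1.23% in old BEU libraries, and 22.5%, 30.0% and 20.0% in young CMC libraries, against 0.517%, 1.01% and 0.996% in young BEU libraries. Old and young CMC values overlapped, and all lay far above BEU. Its rise was 26.3 ± 1.20 points in old (adjusted p = 1.58e-07) and 23.3 ± 5.11 points in young cells (adjusted p = 1.49e-07; SD, n = 3 pairs each). tRNA-Trp-CCA-1-1 rose by 16.3 ± 5.38 points in old and 15.5 ± 5.31 points in young cells. tRNA-Trp-CCA-5-1 rose by 13 ± 3.37 points in old cells; its young rise of 9.81 ± 3.51 points missed the 10-point minimum and was called at 11.6 points without young replicate 3. Few reads stood behind these rates: the shared set had 8 to 20 stop reads per old CMC library and 8 to 66 per young CMC library.

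Position 27, a PUS1 site at the top of the anticodon stem, was called in 4 entries in old and 3 in young cells, with rises between 6.75 and 14.1 points in all but 1 entry. In tRNA-Trp-CCA-1-1 its stop rate was 14.8%, 16.4% and 14.5% in old CMC libraries, against 0.967%, 1.25% and 1.04% in old BEU libraries, and 10.2%, 11.3% and 14.3% in young CMC libraries, against 0.992%, 1.02% and 0.879% in young BEU libraries. The rise was 14.1 ± 0.890 points in old (adjusted p = 6.68e-08) and 11 ± 2.18 points in young cells (adjusted p = 1.08e-07; SD, n = 3 pairs each). Without young replicate 3 the young rises of tRNA-Trp-CCA-1-1 and tRNA-Trp-CCA-5-1 were both 9.75 points and were no longer called. tRNA-Trp-CCA-3-1 was called in old cells only, at 10.0 ± 1.35 points, beside 7.12 ± 2.09 points in young cells, and this call was lost at 9.28 points without old replicate 2. tRNA-Trp-CCA-4-1 had rises of 9.37 ± 1.5 points in old and 6.75 ± 1.56 points in young cells, and tRNA-Trp-CCA-2-1 7.49 ± 0.562 and 8.30 ± 1.12 points, with adjusted p at or below 1.80e-06 but under 10 points. No adjusted p at position 27 was above 0.05, so the calls here turn on the size of the rise. tRNA-Trp-CCA-1-1, tRNA-Trp-CCA-3-1 and tRNA-Trp-CCA-4-1 had the same stop counts at position 27 in every library. Their rises and calls thus differed only through coverage, which was 182, 263 and 294 reads in old CMC replicate 1.

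tRNA-Trp-CCA-6-1 stood apart at position 27, with a rise of 65.9 ± 7.60 points in old and 66.2 ± 1.09 points in young cells. Its stop counts there were those of tRNA-Trp-CCA-1-1, with 27, 19 and 47 reads in the old CMC libraries and 27, 72 and 18 in the young CMC libraries. Only the coverage differed, with 37, 24 and 75 reads in old and 37, 99 and 25 in young CMC libraries for tRNA-Trp-CCA-6-1, against 182, 116 and 325 in old and 265, 636 and 126 in young CMC libraries for tRNA-Trp-CCA-1-1. The entry begins 1 base 5′ of position 27, and a read that extends 5′ of that base cannot match this entry along its whole length. Its rate is thus taken over a different set of reads and is not a higher level of modification measured in the same way.

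The coverage of position 27 in the other 5 entries holds many reads that end inside the anticodon. From the steps in coverage, reads with their 3′ end at base 34, between C at position 35 and A at position 36 of the anticodon, were counted; this comparison was added after the values were seen. In tRNA-Trp-CCA-4-1 such reads made up 69.4%, 63.4% and 61.9% of the reads over base 34 in old CMC libraries and 70.0%, 70.8% and 70.9% in young CMC libraries. Over the 5 entries their mean share lay between 55.8% and 65.0% in old CMC, 34.5% and 46.7% in old BEU, 62.4% and 70.6% in young CMC and 48.9% and 60.6% in young BEU libraries. In a read that ends at base 34 a stop at position 27 would leave 8 bases; whether such short reads were recorded was not tested. With them taken out of the coverage, the rise at position 27 was 33.6 ± 4.49 points in old and 30.3 ± 6.28 points in young cells in tRNA-Trp-CCA-1-1, 21.6 ± 2.55 and 26.5 ± 3.70 points in tRNA-Trp-CCA-2-1, 29.4 ± 5.26 and 23.5 ± 6.59 points in tRNA-Trp-CCA-3-1, 27 ± 5.02 and 22.1 ± 3.89 points in tRNA-Trp-CCA-4-1 and 33.2 ± 3.98 and 30.2 ± 6.30 points in tRNA-Trp-CCA-5-1 (SD, n = 3 pairs each). Each is over 1.5 times the rise with the deposited coverage. No test was made on these values.

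**Figure D3:**
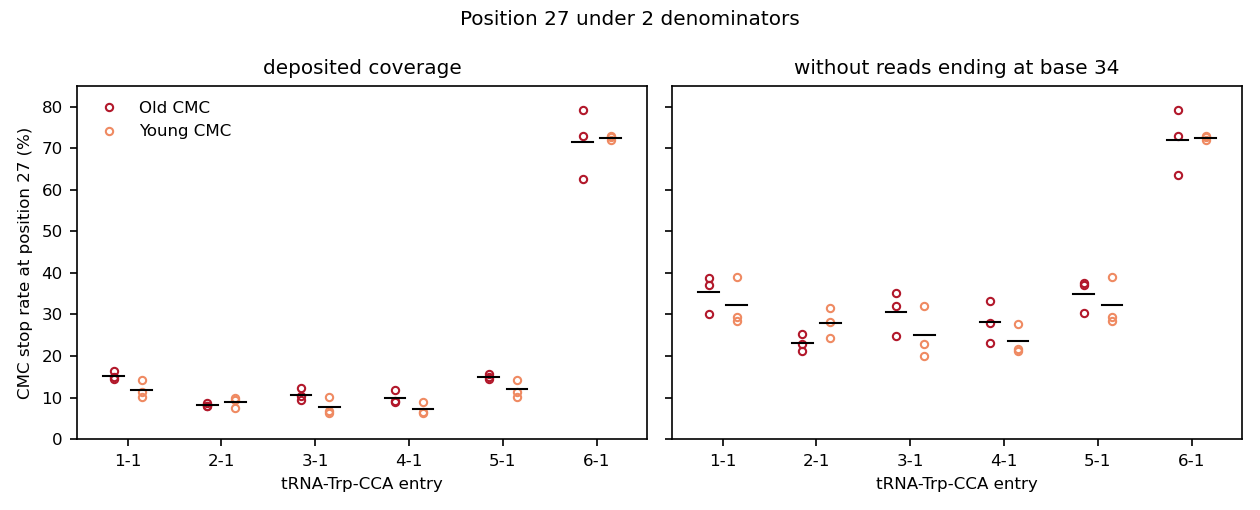
CMC stop rate at position 27 (percent, y axis) per library for the 6 tRNA-Trp-CCA entries (x axis), old beside young, with the deposited coverage (left) and without the reads whose 3′ end is base 34 (right). Points are libraries and bars are means of 3; 5 entries lie near 10% on the left and between 20% and 40% on the right, while tRNA-Trp-CCA-6-1 is above 60% in both.

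A further pair of sites was called, both in old cells and in tRNA-Trp-CCA-5-1. T at position 60, in the T loop, had stop rates of 16.4%, 20.7% and 19.9% in old CMC libraries, against 5.2%, 9.96% and 10.6% in old BEU libraries, a rise of 10.4 ± 1.01 points (adjusted p = 0.0101). In young cells its rise was 7.07 ± 4.89 points (adjusted p = 0.0515). The stop counts at this T were those of tRNA-Trp-CCA-1-1 in every library, with 167, 119 and 330 reads in the old CMC libraries. Only the coverage differed, at 1017, 575 and 1657 reads in old CMC libraries, against 1451, 774 and 2594 in tRNA-Trp-CCA-1-1. The old rise of 6.58 ± 1.78 points in tRNA-Trp-CCA-1-1 was not called, so the call in tRNA-Trp-CCA-5-1 rests on its lower coverage. C at position 56, next to T at position 55, rose by 10.3 ± 2.02 points in old cells (adjusted p = 0.0159) and showed 5.00 ± 4.15 points in young cells (adjusted p = 0.274; SD, n = 3 pairs each, edgeR). The call at C was lost without any 1 of the 3 old replicates. The age difference was 5.34 ± 2.66 points at C and 3.35 ± 2.88 points at T (mean ± SE), with unadjusted interaction p of 0.125 and 0.502 in edgeR.

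Several bases stopped reverse transcriptase without CMC. The D loop, named for its dihydrouridines, held the highest of them. T at position 20 had mean BEU stop rates of 42.4 ± 4.08% in old and 42.1 ± 1.80% in young libraries in tRNA-Trp-CCA-1-1, and 19.2 ± 3.03% and 21.3 ± 1.94% in tRNA-Trp-CCA-4-1 (SD, n = 3 each). The stop counts at position 20 were the same in both entries in every library, with 836, 358 and 277 in the old BEU libraries. Only the coverage differed, at 2209, 783 and 635 reads in tRNA-Trp-CCA-1-1 against 5084, 1594 and 1474 in tRNA-Trp-CCA-4-1 in these libraries. CMC added 6.78 ± 7.13 points in old and 7.99 ± 7.01 points in young cells in tRNA-Trp-CCA-1-1, which did not pass the test (adjusted p = 0.297 and 0.252). At position 16 the entries with T had higher BEU stop rates than those with C: 33.1 ± 2.90% in old and 42.4 ± 3.96% in young libraries for T in tRNA-Trp-CCA-1-1, beside 9.11 ± 0.227% and 13.2 ± 1.79% for C in tRNA-Trp-CCA-4-1. Yet the stop counts of both were the same in every library, 376, 105 and 106 in the old BEU libraries and 302, 292 and 424 in the young ones. A read that stops at base 16 does not contain it and cannot tell T16 from C16, so the difference between these rates lies only in the reads that passed. In tRNA-Trp-CCA-5-1 the rise at T16 averaged 11.4 ± 12.5 points in old and 9.06 ± 14.8 points in young cells, with an SD above the mean, and it was not called.

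Outside the D loop, G at position 46, which is 7-methylguanosine in many tRNAs, had mean BEU stop rates of 12.6% to 27% in old and 16.7% to 32.5% in young libraries over the 6 entries. G at position 26, a site of methylation by TRMT1 in many tRNAs, had 7.99% to 15.3% in old and 6.74% to 12% in young libraries over the 4 entries that passed both the coverage minimum of 20 and the 5% minimum. C at position 35 was stopped at in 6.63% to 21.4% of reads in old and in 10.5% to 28.4% in young BEU libraries; a stop there is a read whose 5′ end is the A at position 36. That is the 3′ side of the same bond at which the 5′ fragments end. At positions 46 and 35, tRNA-Trp-CCA-1-1, tRNA-Trp-CCA-3-1, tRNA-Trp-CCA-4-1 and tRNA-Trp-CCA-6-1 had the same stop counts in every library. The first 3 of these also had the same stop counts at position 26. Among entries with the same stop counts the rates differed only through coverage. The highest rates at positions 46 and 35 were those of the short entry tRNA-Trp-CCA-6-1.

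The reads with their 3′ end at base 34 fell into 3 groups by sequence. Reads ending there cannot distinguish tRNA-Trp-CCA-1-1 from tRNA-Trp-CCA-5-1, both with T16, nor tRNA-Trp-CCA-2-1 from tRNA-Trp-CCA-4-1, and the counts followed this: 882, 433 and 338 beside 885, 432 and 335 reads in the old BEU libraries for the first pair, and 2532, 861 and 865 beside 2539, 864 and 870 for the second. Over the 6 BEU libraries the mean share of reads over base 34 that ended there was 41.7% in tRNA-Trp-CCA-1-1, 53.6% in tRNA-Trp-CCA-2-1, 51.7% in tRNA-Trp-CCA-3-1, 52.8% in tRNA-Trp-CCA-4-1 and 42.5% in tRNA-Trp-CCA-5-1. The highest share at any of the other 254 measured bases of tRNA-Trp was 5.03%. tRNA-Trp-CCA-6-1, whose entry begins 9 bases before, had at most 2 such reads in any library, and the reason was not tested.

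Among 144 distinct tRNAs with a measured anticodon loop, the highest share of 3′ ends at any loop base had a median of 1.94% outside tRNA-Trp, and the 5 tRNA-Trp entries had ranks 2, 3, 4, 7 and 8. Of 954 loop bases measured, 35 had a mean share of at least 10%, and 29 of these were C followed by A, a pair found at 72 of the 954. Besides the 5 in tRNA-Trp, 17 of the 35 lay in tRNA-Cys, also between C at position 35 and A at position 36. These counts are descriptions over entries that share reads.

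Old BEU libraries had lower shares of reads ending at base 34 than young ones in all 5 entries, but the difference did not pass the test. In tRNA-Trp-CCA-2-1 the share was 41.5%, 47.8% and 50.6% in old BEU libraries, against 60.9%, 65.5% and 55.4% in young BEU libraries. In tRNA-Trp-CCA-1-1 it was 26.4%, 39.9% and 37.1% in old BEU libraries, against 48.9%, 55.6% and 42.2% in young BEU libraries. The ages did not overlap in any of the 5 entries, as at 30.5% of the 220 bases tested over all tRNAs, and 88.2% of the 220 were lower in old cells. The differences lay between -15.1 and -12.3 points, with adjusted p between 0.376 and 0.506 in edgeR; 4 of the 6 tRNA-Trp bases tested had an unadjusted p under 0.05, beside 12.3% of the 220, and DESeq2 and limma also called 0. Of all 220 bases 3 were called, which is 1.36%. The tests at base 34 are not independent, since tRNA-Trp-CCA-1-1 and tRNA-Trp-CCA-5-1 had nearly the same counts of these reads. So did tRNA-Trp-CCA-2-1 and tRNA-Trp-CCA-4-1. The other tRNA-Trp base tested was base 41 of tRNA-Trp-CCA-5-1. The deepest libraries of each age were old BEU replicate 1 and young BEU replicate 3. Each had the lowest share of its age in tRNA-Trp-CCA-1-1 and in tRNA-Trp-CCA-2-1, and the part of depth in the difference was not tested. With CMC the share in tRNA-Trp-CCA-2-1 was 64.7 ± 2.18% in old and 69.0 ± 2.71% in young libraries (SD, n = 3 each).

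**Figure D4:**
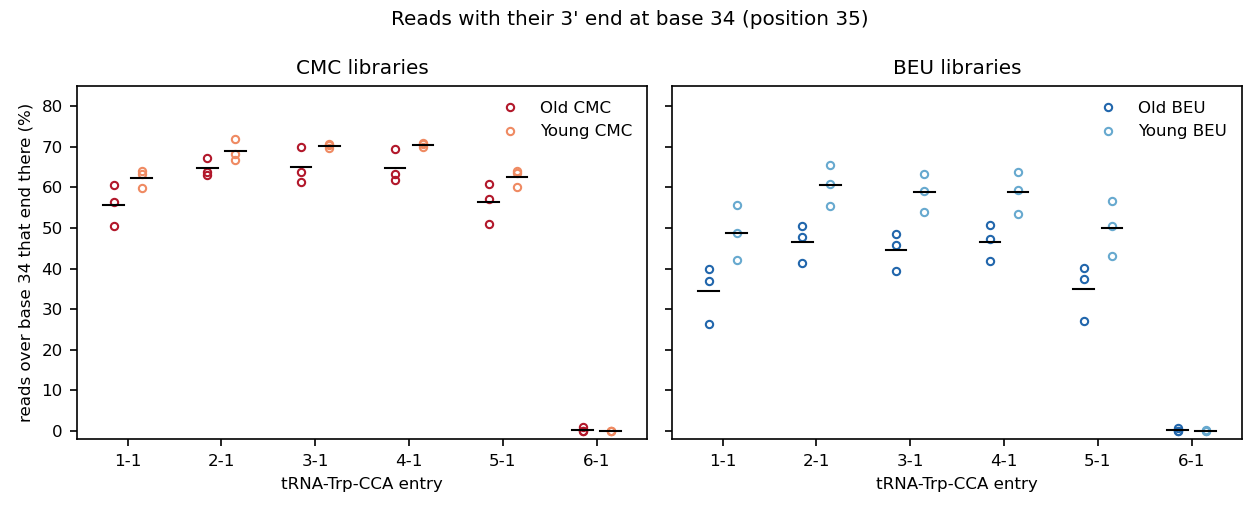
Share of the reads over base 34 whose 3′ end is that base (percent, y axis) per library for the 6 tRNA-Trp-CCA entries (x axis), old beside young, in CMC libraries (left) and BEU libraries (right). Points are libraries and bars are means of 3; old BEU libraries lie below young BEU libraries in 5 entries, and tRNA-Trp-CCA-6-1 is near 0.

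Age made no called difference to the CMC-dependent rise in tRNA-Trp. Of the 22 T sites with an average rise of at least 10 points, edgeR called 0, as did DESeq2 and limma; at an unadjusted p under 0.05 edgeR had 0, DESeq2 1 and limma 0, beside 4.78% of all tested sites in edgeR. Over all tRNAs 0 of 439 were called, a background of 0%. The 3 highest differences, old minus young, were 8.5 ± 3.57 points at position 54 of tRNA-Trp-CCA-2-1 (unadjusted p = 0.0551), 3.84 ± 2.07 points at its position 55 and 3.17 ± 1.36 points at position 27 of tRNA-Trp-CCA-1-1 (mean ± SE). The 3 lowest were -1.41 ± 1.14 points at position 55 of tRNA-Trp-CCA-6-1, -1.33 ± 4.76 points at its position 39 and -0.996 ± 1.09 points at position 55 of tRNA-Trp-CCA-1-1. All had an adjusted p of 0.999. The 3 old rises did not overlap the 3 young ones at 2 of the 22 sites, position 27 of tRNA-Trp-CCA-1-1 and of tRNA-Trp-CCA-5-1, whose stop counts differed there by 1 read in 1 CMC library, against 13% of the 439 sites. The median difference was 1.20 points over the 22 sites and 1.39 points over the 439.

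**Figure D5:**
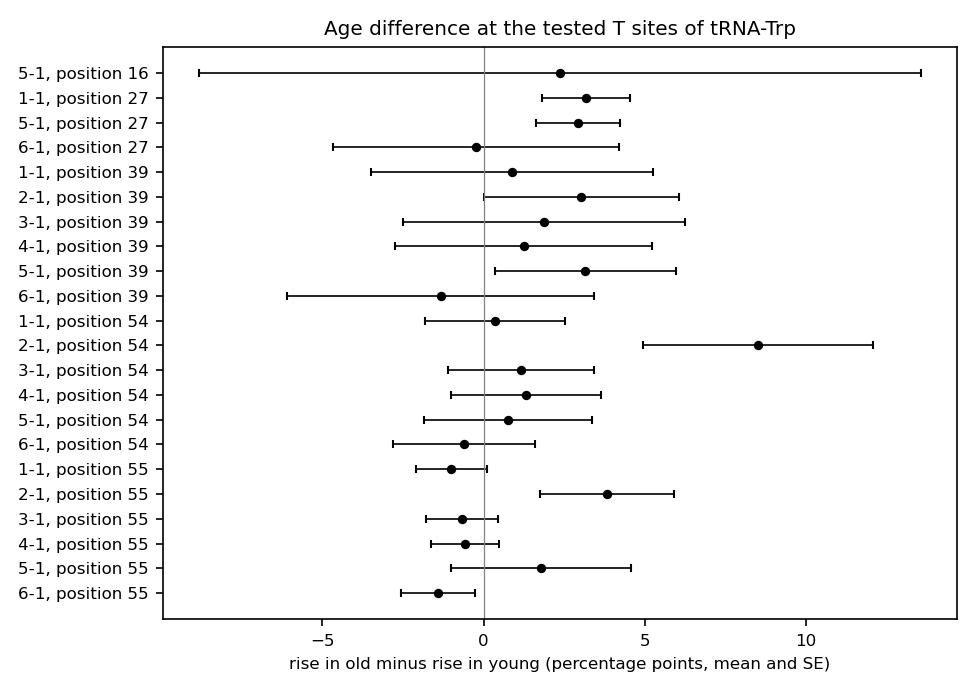
Rise in old minus rise in young cells (percentage points, x axis) at the 22 tested T sites of tRNA-Trp (y axis), as mean and SE over 3 pairs per age. Position 54 of tRNA-Trp-CCA-2-1 is the highest at 8.5 points, and no site passed the test.

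BEU stops were lower in old cells at 68 of 95 tested bases of tRNA-Trp and at 749 of 1190 over all tRNAs, with median differences of -0.85 and -0.63 points. edgeR called 0 of the 95 in tRNA-Trp, against 0.336% of the 1190, and DESeq2 and limma also called 0. At an unadjusted p under 0.05 there were 8 of 95, all lower in old cells, beside 6.22% over all tRNAs, and 5.63% over all tRNAs when only lower values were counted. The 8 lay at positions 16, 35 and 46, and several came from entries with the same stop counts, so they are not independent results. The lowest p was at C of position 16 in tRNA-Trp-CCA-2-1, with 7.01 ± 0.309% in old and 12 ± 1.98% in young BEU libraries (adjusted p = 0.395; SD, n = 3 each). Among sites that stayed below 7500 reads in all libraries, 5 of 86 were called, against 5.49% of 893 over all tRNAs. All 5 were lower in old cells, as were 47 of the 49 called over all tRNAs. The 5 were position 16 of tRNA-Trp-CCA-2-1 and positions 35 and 46 of tRNA-Trp-CCA-3-1 and tRNA-Trp-CCA-4-1, which share their stops. At position 35 of tRNA-Trp-CCA-4-1 the old BEU libraries had 7.56%, 5.68% and 6.66%, against 9.84%, 11.1% and 10.5% in the young ones (adjusted p = 0.0191 in that set). Without the restriction its adjusted p was 0.469.

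The abundance of tRNA-Trp, taken as the highest coverage of each entry, did not differ by a called amount between the ages. The log2 fold change, old over young BEU libraries, lay between -0.17 in tRNA-Trp-CCA-6-1 and -0.01 in tRNA-Trp-CCA-2-1, with adjusted p of at least 0.681 in edgeR. Of the 6 entries 0 were called and 0 had an unadjusted p under 0.05, beside 5.63% of all tRNAs, DESeq2 called 0, and over all 213 tRNAs 0% were called. tRNA-Trp-CCA-2-1 had 6452, 6192 and 6087 CPM (counts scaled to library size) in old BEU libraries, against 6216, 6260 and 6445 in young BEU libraries, and the groups overlapped. The ceiling on coverage limits this comparison, since the deepest old and the deepest young BEU library reached it in 4 of the 6 entries. The entries also share reads, so their 6 fold changes are not independent measures.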

How the data were processed

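The 6 tables used each hold the CMC and the BEU library of 1 age and replicate number. Per the file headers, they hold coverage, stop reads and stop rate by base; coverage and stops are deposited read counts with a lowest value of 1, and the deposited stop rate is the percent of coverage. Per the submitters' processing notes, Bowtie2 2.3.5 and the build mm10 were used; the rules for stops and multiple alignments are not given in the sources used here. Bases with coverage under 20 in any of the 12 libraries were left out of the tests of stops. Stop and read-through counts were fitted over all tRNAs with edgeR 4.0.16 in R 4.3.3 (quasi-likelihood test), with a coefficient per library, and adjusted by Benjamini-Hochberg, separately for T and for the rest; age was tested as the interaction at T sites with an average rise of at least 10 points. Old and young BEU stops were set against each other where their mean rate reached 5%. Abundance used TMM scaling of the highest coverage of each distinct tRNA. 3′ ends were inferred from steps in coverage. The tests were checked on simulated counts. DESeq2 1.42.0, limma 3.58.1, other coverage minimums and leaving out replicates were alternatives. Named sites were T at positions 27, 39, 54 and 55, other called sites, bases with BEU stops of at least 5% and the 3 highest and lowest age differences. Members and lists were chosen with earlier results of these data known. Reads carry no molecular identifiers, so counting error alone understates the spread.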

Additional observations from a re-analysis of the deposited data

How the results depend on the processing

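The counts of called T sites in tRNA-Trp, 23 in old and 20 in young cells, stayed within 1.5 times under the coverage minimums of 50, 10 and 1, subtraction of 1, all entries, the sites below the ceiling, DESeq2, limma and the leaving out of tRNA-Trp-CCA-6-1. They ranged from 22 to 23 in old and from 19 to 20 in young cells with each replicate left out. A minimum rise of 20 points gave 14 and one of 5 points 36 in old cells. Counting identical stop counts once, an alternative added after the data were seen, gave 12 in old and 10 in young cells. The single call at A, C or G in old cells became 0 with 1 subtracted, at 20 points, with the replicate block and, as a range over replicates left out, 0 to 1; at 5 points there were 7 in old and 1 in young cells. Below the ceiling 5 bases were called for BEU stops, against 0 without that restriction; the cause was not tested. Same-numbered CMC and BEU libraries correlated, in their deviations from the group means, between -0.176 and 0.0911, so the main edgeR fit did not pair them. The SDs and SEs of the rises and the rule of all 3 replicates still took libraries of the same number together. With the replicate block 23 old and 20 young T sites, 0 age differences, 0 BEU differences and 0 abundance differences were called. Age, abundance and 3′ end calls stayed at 0 under every alternative run, including each replicate left out. Of the values recomputed for single sites, 1075 kept their side of the threshold, 9 lost a call, 1 gained one and 10 moved by more than 1 SD, these 20 all at positions 27, 39 and 56; no called value changed sign. Within 14 bases of the 3′ end nothing could be measured, and CMC coverage at position 27 was as low as 24 reads.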
